A study of Mus musculus with 4 samples.

Results

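Chromatin remodellers, deacetylases and histone demethylases were compared between the liver of microsomic mice (M, animals born small) and of control mice (C). The members were taken by gene symbol from the array annotation: every gene of the Smarc (Smarca to Smarce), Chd, Hdac, Sirt, Kdm and Arid families, apart from 2 sex-linked Kdm genes that were left out. This gave 65 genes out of 36161 gene names on the array, measured by 104 probes. Of these genes, 38 had 1 probe and 27 had several, and all 65 symbols were found in a RefSeq gene table.

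Whole liver RNA was hybridized to 1-colour Agilent arrays with probes of 60 bases. The 4 groups, each with 1 array, were M females (MF), C females (CF), M males (MM) and C males (CM). The sample labels give the strain C57BL/6J and embryonic day 20 for every group, whereas the methods of the study describe newborn C57BL/6 N mice and 3 experiments per group. The labels name no genetic change or treatment in any group. Whether an array holds RNA of 1 animal or of several was not given in the sources used here.

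No group has a replicate array. The values of MF vs CF and of MM vs CM are therefore given without error or p-value, and their precision is limited by having 4 arrays. In whole liver, fewer cells of a type and less RNA per cell cannot be told apart.

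These proteins set how tightly DNA is wrapped and which marks its histones carry. Remodellers such as SWI/SNF, whose subunits most Smarc and the Arid1 genes encode, and the Chd enzymes use ATP to slide or evict nucleosomes. Hdac and Sirt enzymes remove acetyl groups from histones and other proteins, which usually lowers transcription at a promoter, and the sirtuins need NAD+ to do so. Kdm enzymes remove methyl groups from histone lysines, and several Arid proteins bring deacetylases or demethylases to DNA. In liver, such enzymes are known for roles in the maturation of hepatocytes and in the response to feeding and fasting.

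Levels below are log2 signals relative to the 75th percentile of each array, which was 893 on MF, 676 on CF, 925 on MM and 628 on CM. All 10 hepatocyte markers, such as albumin, were well above background on every array, and the female and male transcripts of the gender check appeared only on the arrays of that gender. The hepatocyte markers were less even in males: 8 of 14 probes were lower and 1 was higher in MM (median -0.61), with a summed signal of 5249 on MM and 7826 on CM, in multiples of the 75th percentile. Markers of other organs were not evenly spread either. The summed signal of 10 heart genes, in the same unit, was 230.2 on CF and 1.06, 1.18 and 3.81 on MF, MM and CM, with all 10 genes above background on CF and on CM, 7 on MF and 8 on MM. For 10 intestine genes it was 85.9 on MF, 8.54 on CF, 32.3 on MM and 7.52 on CM, and 9 of the 10 genes were above background on MF. On MM most of this signal was that of Fabp2 alone (log2 4.98), and in males 5 of 8 intestine probes were lower and 1 was higher in MM. For 10 granulocyte and macrophage genes it was 1942 on MF and 939 to 1274 on the other arrays. The part of hepatocytes or of these other cells in the differences below was not tested.

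The probes of 6 genes carry most of what follows, and a stretch of 30 bases of each is shown. Either probes of the same gene gave different answers, or the study named the gene. The study also reports real-time PCR for Smarcc1 and Hdac5 in females and for Chd1 in males, each higher in M. Its folds for Hdac5, by PCR and by array, were smaller than the one found here. Capitals mark runs built from windows of 5 bases that hold only C and T with at least 3 C, and each stretch is the part of the probe with most such windows. Across all probes, those with at least 4 windows had a lower median difference in MM vs CM (-0.44) than the other probes (-0.04). In MF vs CF the medians were -0.08 and -0.14. Of the probes with at least 4 windows, 23.9% were over 1.5-fold higher in MF, against 18.6% of the others. In MM vs CM, 14.0% were higher in MM, against 18.3% of the others. Smarcc1 encodes a core subunit of SWI/SNF, Hdac5 a deacetylase, Chd1 a remodeller that binds methylated histone H3, Kdm5b a demethylase of that mark, and Smarca4 and Arid1b the ATPase and a DNA-binding subunit of SWI/SNF. The annotation of the array places the probes on mm9, on the plus strand except for Hdac5, and gives no exon or UTR. The intervals of Chd1 and of the first Smarcc1 probe are longer than the probe itself.
Smarcc1 A_52_P312837, chr9:110116115-110124422: gctctagaacaacagagacagcagttgctt
Smarcc1 A_55_P1984622, chr9:110116027-110116086: aaaatcaagtccttggtagCTCTCttggtt
Smarcc1 A_55_P1984625, chr9:110086584-110086643: CCTTCTCCCCacaaTTCCCTCTggttgttt
Smarcc1 A_55_P2131153, chr9:110140717-110140776: tatCTCTCTCtgtCTCTCTCTCTCtgcttt
Hdac5 A_55_P1983006, chr11:102057076-102057135: gCCCCCaTCCCTCTgggcttcatcattgtg
Chd1 A_52_P329250, chr17:15901939-15903307: tgcttgaaggaatattccaatcctgaacaa
Kdm5b A_55_P1960581, chr1:136503116-136503175: tttagtagggatgtttgtgagtgcttatct
Kdm5b A_55_P1960576, chr1:136527740-136527799: cattgttTCCTCTgaaCCCCCCaTCTCCCT
Kdm5b A_55_P2065449, chr1:136528046-136528105: ctatttctattccttatgggatcatttttc
Kdm5b A_52_P601980, chr1:136528957-136529016: ttaagccatgttctttttcagtaagCCCTC
Smarca4 A_55_P2154690, chr9:21483531-21483590: ttctcgccaccgcaaggaggtagactacag
Smarca4 A_55_P2154684, chr9:21507751-21507810: ccagcgggtatgtcagtgtcactggagtca
Arid1b A_55_P2103641, chr17:5126965-5127024: aatccaaccatgaagacttgaatttaattc
Arid1b A_55_P2103657, chr17:5321342-5321401: CTCTCtgaaaaagcagtatattcagtacct
Arid1b A_52_P289256, chr17:5343084-5343143: tgacatccgtgaaggcacacatgtgtgagt

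Most of these chromatin genes were detected in liver, and most differed little between M and C. Of the 102 probes without an outlier flag, 84 (82.4%) were well above background on all 4 arrays, against 46.0% of all probes, and none was saturated. A probe was compared where at least 1 array of the pair was well above background, which held for 96 member probes (63 genes) in females and 93 (62 genes) in males. Where the other array was not, the difference is a nominal bound of its size. The dim signal was used as read unless it lay below the lowest signal well above background there. Such a bound is therefore not a strict minimum. The 5 probes measured in neither gender were 1 each of Arid2, Arid4b, Arid5b and Kdm3b and the single probe of Arid3c. The other 2 probes had an outlier flag: the single probe of Sirt3 (log2 3.34 on MF, 4.06 on CF, 4.18 on MM and a flagged 3.81 on CM) and 1 of the 3 Arid4a probes.

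In females, 27 of 96 member probes (28.1%) differed by over 1.5-fold, 15 higher and 12 lower in MF. The share over all probes of the array was 41.4% (19.1% higher and 22.3% lower), so the members lay below the background. In males, 22 of 93 member probes (23.7%) did so, 17 higher and 5 lower in MM, against 41.1% of all probes (17.8% higher and 23.3% lower). Over probes well above background on all 4 arrays, the shares were 26.2% of 84 members against 37.1% of all probes in females, and 21.4% against 35.3% in males. The median difference of the members was -0.05 in females and 0.02 in males, beside -0.14 and -0.07 for all probes measured on both arrays.

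**Figure D1:**
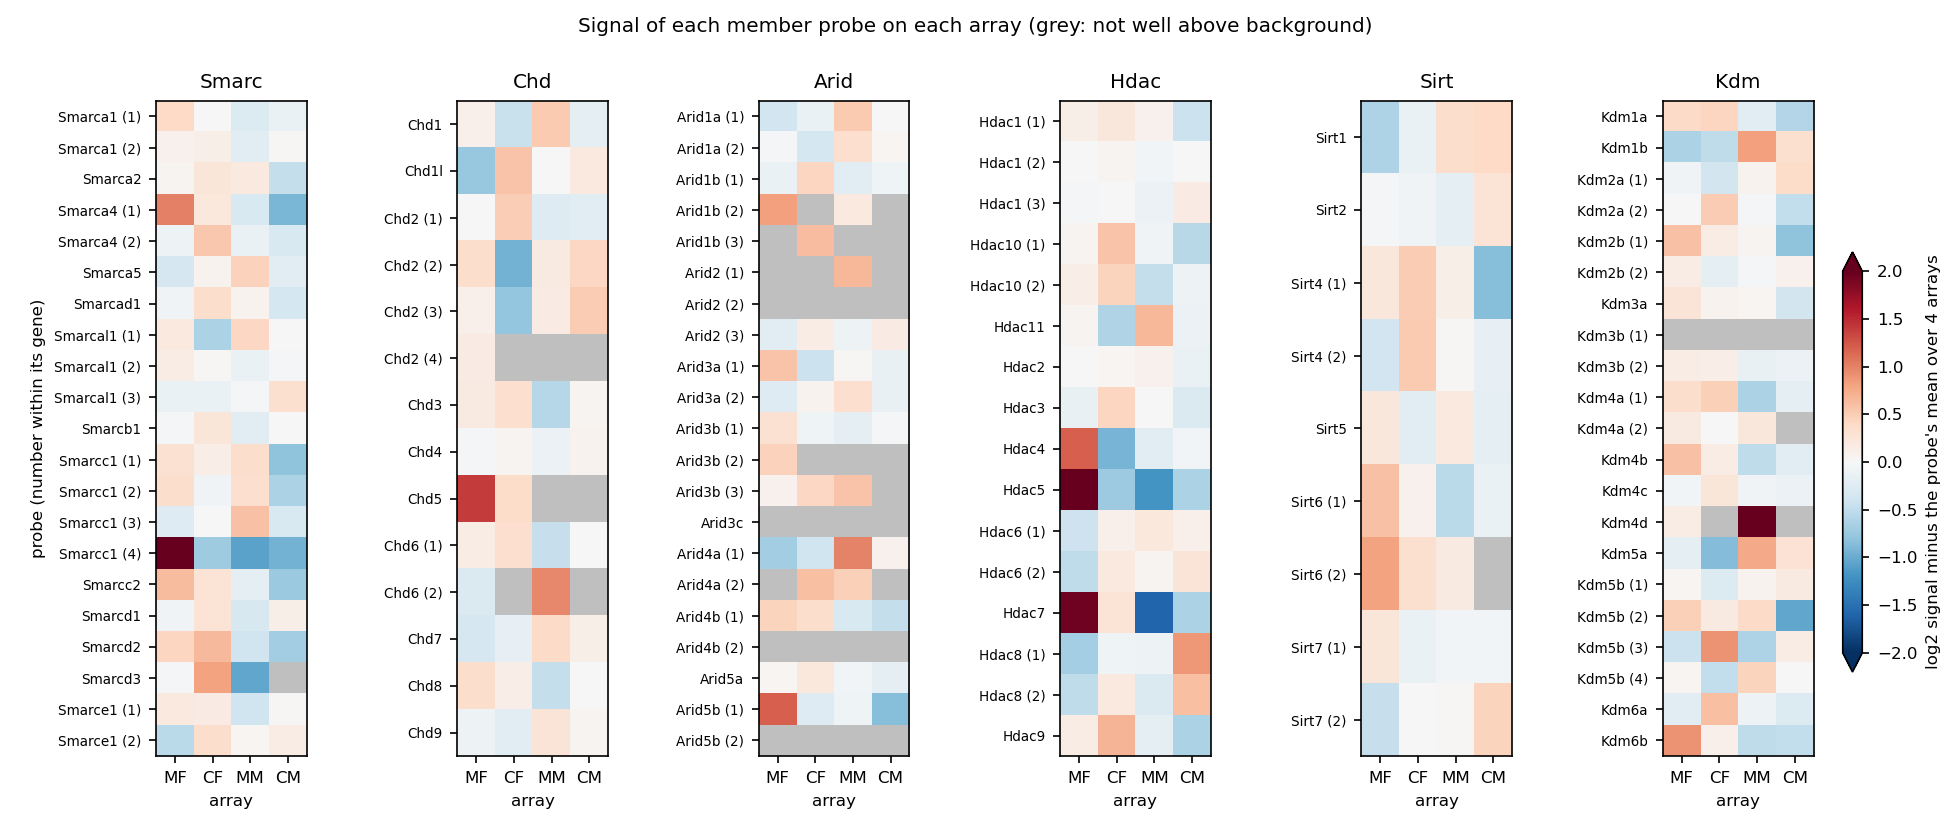
Signal of the 102 member probes on the MF, CF, MM and CM arrays, one row per probe and one panel per family. Colour gives log2 signal minus the mean of that probe over the 4 arrays (2 or more at the ends of the scale), and grey cells were not well above background. Most rows are pale; Hdac5, Hdac7 and the fourth Smarcc1 probe are dark red on MF alone.

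The split between higher and lower depended on the scaling between arrays. In males, 77.3% of the members past 1.5-fold were higher in MM, and this share was 91.7% after centring each array on its median, 100% without scaling and 68.3% after normexp background correction. In females the share was 55.6%, and 67.9%, 94.9% and 53.1% with the same alternatives. Centring on the median moved the median of all probes to -0.04 in females and 0.16 in males, no scaling moved it to 0.26 and 0.49, and normexp moved it to -0.24 and -0.23.

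Members passed the same way in both genders about as often as all probes did. Of 92 member probes compared in both, 6 (6.52%) passed 1.5-fold the same way, against 6.98% of all probes: higher in M for Arid5b, Smarca4 and Hdac11, and lower in M for both probes of Hdac8 and for 1 probe of Kdm5b. A single probe (1.09%), that of Hdac7, passed in opposite directions, against 9.95% of all probes. Among the 84 probes on all 4 arrays, the differences had the same sign in 40 and opposite signs in 44 (47.6% of the same sign, beside 49.5% of all probes). The C arrays and the M arrays also differed between the genders: 34 of 91 member probes were over 1.5-fold apart in CM vs CF (8 higher and 26 lower in CM), against 47.1% of all probes, and 40 of 96 in MM vs MF (16 higher and 24 lower in MM), against 50.7%.

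**Figure D2:**
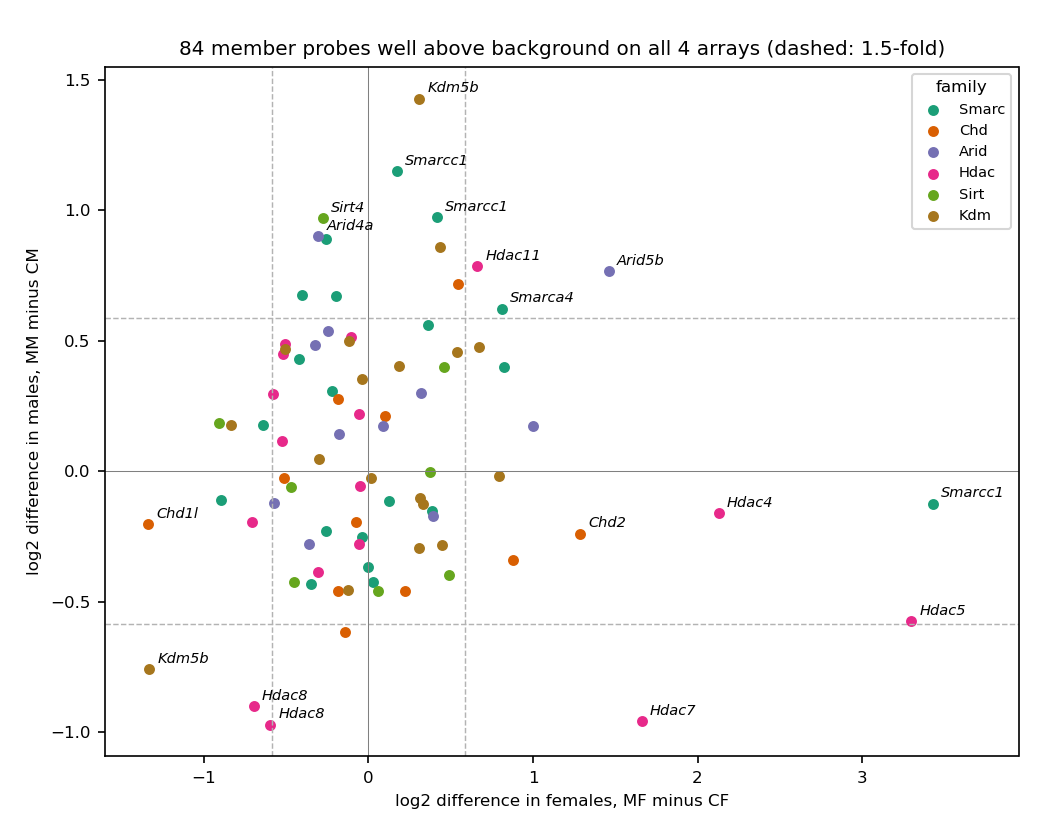
Log2 difference of the 84 member probes measured on all 4 arrays, females (MF minus CF) on the x axis and males (MM minus CM) on the y axis, coloured by family, with dashed lines at 1.5-fold. Smarcc1 and Hdac5 lie beyond 3 on the female axis and between -0.6 and 0 on the male axis, and Hdac7 is the single point in the lower right corner beyond both lines.

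The main model that used the genders as replicates was a limma fit of the 4 arrays on condition and gender, with 1 residual degree of freedom. For M vs C, 0 of the 84 member probes tested passed an adjusted p (Benjamini-Hochberg) of 0.05, the smallest being 0.998, and 2 had an unadjusted p under 0.05. Over all 25040 probes limma called 0, with a smallest adjusted p of 0.657 and 1124 probes (4.49%) at an unadjusted p under 0.05. The 2 member probes were Arid5b, with a log2 difference of 1.11 ± 0.43 (SE) and an unadjusted limma p of 0.0329, and the Kdm5b probe A_55_P1960581, with -1.04 ± 0.43 (SE) and 0.0402. Over all probes limma called 13 after median centring (smallest adjusted p 0.0427), 36 without scaling (0.00732) and 17 after normexp correction (0.00223), none of them a member. An unadjusted limma p under 0.01 together with over 1.5-fold, the pair of thresholds that the study states for comparisons of 2 groups, counted 0 members and 210 probes in this fit of both genders. A fit without the gender term, with 2 residual degrees of freedom, gave 0 members an unadjusted limma p under 0.05.

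The Smarc family, of 13 genes and 21 probes, comprises SWI/SNF subunits, the ISWI ATPases Smarca1 and Smarca5, and the helicases Smarcad1 and Smarcal1. All 21 probes were compared. For this and the families below, the share of all probes past 1.5-fold was 41.4% in females (19.1% higher and 22.3% lower). In males it was 41.1% (17.8% higher and 23.3% lower). In females 3 were higher and 3 lower in MF (median -0.04), and in males 6 were higher and 0 lower in MM (median 0.24). This median in males was above 0 in all 11 alternatives, from 0.09 to 0.80, while that in females changed sign in 2.

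Smarcc1 had the largest difference among members measured on both arrays, in females, but with 1 of its 4 probes. On that probe, A_55_P2131153, the level was 7.34 on MF, 3.91 on CF, 3.54 on MM and 3.67 on CM. MF was 10.8-fold above CF (log2 3.43), and the other 3 arrays lay close to each other. This probe has 6 C and T windows.

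The other 3 Smarcc1 probes showed no such difference in females and a difference in males instead. A_52_P312837 read -1.79 on MF, -1.96 on CF, -1.75 on MM and -2.90 on CM. A_55_P1984622 read -0.80, -1.21, -0.80 and -1.77 in the same order, and A_55_P1984625, with 8 windows, read -3.22, -2.97, -2.38 and -3.27. In females these probes differed by 0.17, 0.42 and -0.26, none past 1.5-fold. In males all 3 were higher in MM, by 1.15, 0.97 and 0.89 (2.22-, 1.96- and 1.85-fold), while A_55_P2131153 differed by -0.13. The array annotation assigns A_55_P1984625 to a transcript other than a RefSeq mRNA.

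The ATPase Smarca4 also gave opposite results by probe in females. A_55_P2154684 read 4.58 on MF, 3.77 on CF, 3.27 on MM and 2.65 on CM, so that M was above C by 0.81 in females and 0.62 in males, and both females were above both males. The difference on this probe was under 1.5-fold after quantile normalization (0.50 in females and 0.54 in males), after normexp correction in females (0.57) and after removal of a position trend in males (0.51). A_55_P2154690 read 0.52, 1.16, 0.49 and 0.31, with CF above the other 3 arrays, which gave -0.64 in females and 0.17 in males. Smarca2, the alternative ATPase of the complex, read 0.33, 0.53, 0.47 and -0.20, and Smarca5 read 2.65, 3.05, 3.44 and 2.77. Both were higher in MM than in CM by 0.67 and had differences of -0.20 and -0.40 in females.

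The remaining Smarc probes past 1.5-fold did so in females. Smarce1, a DNA-binding SWI/SNF subunit, was lower in MF on A_55_P2026291 (1.93 on MF, 2.82 on CF, 2.52 on MM and 2.63 on CM, a difference of -0.89) but not on A_55_P1989885 (0.03). One of 3 Smarcal1 probes, A_51_P137168, which the array annotation assigns to a transcript other than a RefSeq mRNA, was higher in MF by 0.83 and the other 2 differed by 0.13 and -0.0027. Smarcd3, a subunit of the SWI/SNF complexes of heart and muscle, read -3.88 on MF, -3.05 on CF and -4.90 on MM. On CM it read -3.615, brighter than on MM, but was not well above background there. Its male difference was therefore set to 0 and says nothing of direction. Smarcd3 was brightest on CF, the array with the heart markers. Its difference of -0.83 in females stood beside those markers, whose part in it was not tested. Among Smarc probes measured on both arrays, Smarcd1 was the lowest in males (-0.43) and did not pass.

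The Chd family has 10 genes and 14 probes, of which 14 were compared in females (3 higher and 1 lower in MF, median 0.01) and 12 in males (2 higher and 1 lower in MM, median -0.20). Both medians changed sign under an alternative scaling. Chd1, whose single probe is shown above, read -1.63 on MF, -2.17 on CF, -1.21 on MM and -1.92 on CM. Both M arrays were above both C arrays. The difference of 0.72 in males (1.64-fold) passed the threshold and that of 0.54 in females (1.46-fold) did not. After normexp correction the male difference was 0.55, under the threshold.

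Chd1l, a remodeller recruited to damaged DNA, was the lowest Chd probe in females. It read -0.63 on MF, 0.71 on CF, 0.13 on MM and 0.33 on CM, a difference of -1.34 in females (2.53-fold lower) and -0.20 in males. Chd3, an ATPase of the deacetylase complex NuRD, was lower in MM (1.11 on MM and 1.73 on CM, a difference of -0.62 or 1.53-fold). In females its levels were 1.86 and 2.01. After normexp correction its difference in males was 0.30.

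Chd2 had 4 probes that disagreed in females. A_55_P2175469 read 1.39 on MF, 0.10 on CF, 1.21 on MM and 1.45 on CM, and A_65_P01643 read -1.07, -1.95, -1.01 and -0.67. On both probes CF was below the other 3 arrays, by over 1.5-fold, and MF was above CF by 1.29 and 0.88. A_51_P294113 read 1.17, 1.69, 0.93 and 0.96, with CF above the others and a difference of -0.51, and the fourth probe gave a bound of 0.55. In males the 3 probes measured lay between -0.34 and -0.02. Chd5, a NuRD ATPase best known from neurons, was over background in females alone, at -3.07 on MF and -4.10 on CF. Chd6 passed in males with 1 of 2 probes, by a bound of 0.81. Chd4, Chd7, Chd8 and Chd9 lay within 1.5-fold in both genders.

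In the Arid family, of 10 genes and 22 probes, 16 probes were compared in females (3 higher and 2 lower in MF, median -0.21) and 15 in males (2 higher and 0 lower in MM, median 0.17). Both medians changed sign under normexp correction, to 0.22 and -0.21. Arid5b, a partner of the demethylase Phf2 with roles in fat and liver metabolism, was higher in M in both genders on A_52_P432580. Its level was 3.45 on MF, 1.99 on CF, 2.16 on MM and 1.40 on CM, so that the differences were 1.46 in females (2.75-fold) and 0.77 in males (1.70-fold). Both M arrays were above both C arrays, though MM was above CF by little. The annotation assigns this probe, too, to a transcript other than a RefSeq mRNA. The second Arid5b probe was not well above background on any array.

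Arid1b gave opposite bounds by probe in females. A_55_P2103641 was well above background on MF (-3.96) and MM (-4.58) alone. In females it gave a difference of 1.22 (2.33-fold) from a CF reading that was not well above background. A_55_P2103657 was well above background on CF (-5.22) alone and gave a nominal bound of 1.70-fold in the other direction (-0.77). The CF signal was close to the lowest that passed on that array (-5.48), and after normexp correction the first probe differed by 0.15. The brightest Arid1b probe, A_52_P289256, read 0.39, 0.96, 0.32 and 0.44 on MF, CF, MM and CM and differed by -0.57 in females and -0.12 in males, not past 1.5-fold.

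Arid4a, a subunit of the Sin3 deacetylase complex, was higher in MM. A_55_P2055419 read -1.44 on MF, -1.13 on CF, 0.26 on MM and -0.65 on CM, a difference of 0.90 in males (1.87-fold) and -0.31 in females, with MM above the other 3 arrays. The Arid4a probe with an outlier flag on MM read -0.17, -0.14, 0.71 and -0.32 when it was kept, a difference of 1.03 in males and -0.03 in females. After normexp correction the first of these probes differed by -0.02 in males. The third, dim probe of Arid4a gave bounds of -0.62 in females and 0.21 in males. Arid3a was higher in MF on 1 of 2 probes (3.59 on MF and 2.59 on CF), and the other differed by -0.32. Arid2 was the lowest Arid probe measured in males (-0.28), and both Arid1a probes were within 1.5-fold in both genders.

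**Figure D3:**
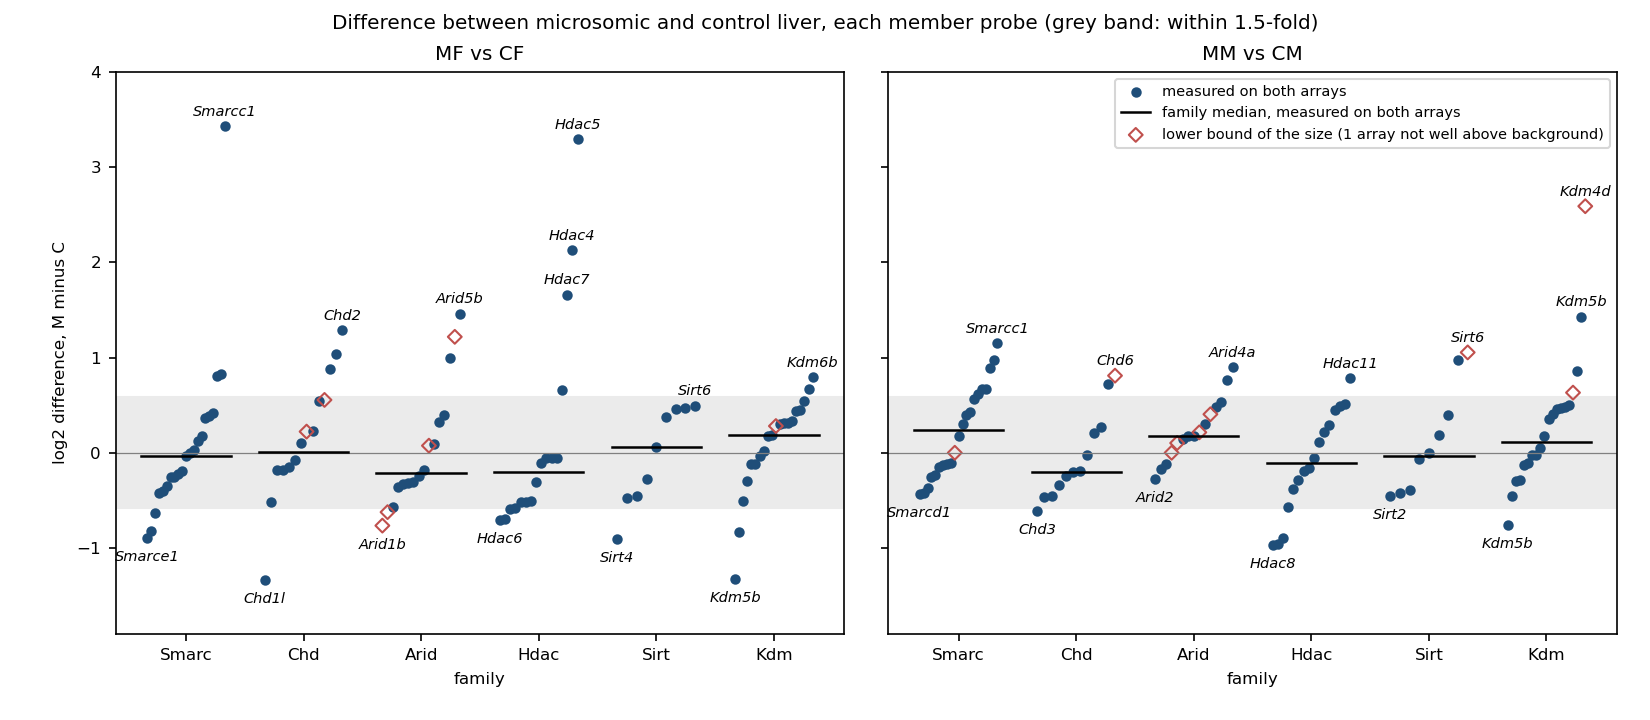
Log2 difference (M minus C) of every member probe compared, by family, in females (left) and males (right). Filled points were measured on both arrays, open diamonds are nominal bounds of the size, black lines are family medians over filled points, and the grey band is 1.5-fold. Family medians lie between -0.21 and 0.24, while Smarcc1, Hdac5, Hdac4 and Hdac7 stand above their families in females.

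The Hdac family has 11 genes and 16 probes, all compared and all well above background on all 4 arrays. In females 4 probes were higher and 3 lower in MF (median -0.21). In males 1 was higher and 3 were lower in MM (median -0.11). The female count was close to the share over all probes (41.4%), and the male count was below it (41.1%). Without scaling, the female median was 0.20 and the male median 0.45, and the male median changed sign in 5 of 11 alternatives.

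Class IIa deacetylases, which shuttle between nucleus and cytoplasm and act largely as scaffolds for corepressors, held the 3 largest differences of the family. Hdac5 read 5.71 on MF, 2.41 on CF, 1.94 on MM and 2.51 on CM. Hdac4, at 0.65 on MF, read -1.48 on CF, -0.75 on MM and -0.59 on CM. Hdac7 read 3.64 on MF, 1.98 on CF, 0.11 on MM and 1.07 on CM.

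All of these were highest on MF, by over 1.5-fold above each of the other arrays. In females Hdac5 was 9.83-fold higher in MF (3.30), Hdac4 4.37-fold (2.13) and Hdac7 3.16-fold (1.66). In males Hdac5 differed by -0.57, just short of the threshold, Hdac4 by -0.16, and Hdac7 by -0.96 (1.94-fold lower in MM). Each has 1 probe on the array, so no second probe can be set beside it, and that of Hdac5 has 4 C and T windows while those of Hdac4 and Hdac7 have 0. Hdac9, the fourth member of the class, read -0.82, -0.30, -1.16 and -1.61 and differed by -0.52 in females and 0.45 in males, not past 1.5-fold. Hdac4 and Hdac7 were named after their values were seen.

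MF had the highest summed signal of intestine genes and of granulocyte and macrophage genes, and 7 of the 84 member probes were over 1.5-fold above all other arrays on MF (8.33%, beside 7.73% of all probes). These 7 were Hdac4, Hdac5, Hdac7, Smarcc1, Smarca4, Arid5b and Kdm6b. On the other arrays the count was 3 on CF (3.57%, beside 2.67% of all probes), 2 on MM (2.38%, beside 4.68%) and 1 on CM (1.19%, beside 8.44%). Over 1.5-fold below all other arrays were 6 member probes on CM (7.14%, beside 4.64% of all probes) and 5 on CF (5.95%, beside 3.25%). On MF and on MM 2 were (2.38% each, beside 9.72% and 3.79%). MF also had 1008 flagged spots, against 222 to 331 on the other arrays, and 22 saturated spots, against 0 or 1. The part of the other cell types or of array quality in these differences was not tested.

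Among the class I deacetylases, the catalytic subunits of the nuclear corepressor complexes, Hdac1 and Hdac2 were level in females and Hdac8 was lower in M. The 3 Hdac1 probes differed by -0.05 to -0.11 in females and by -0.28 to 0.51 in males. Hdac2 was printed at 10 spots, of which 8 had no flag, and gave 0.17 ± 0.32 (SD over spots) on MF, 0.22 ± 0.39 on CF, 0.27 ± 0.44 on MM and 0.05 ± 0.43 on CM. The difference between any pair of these arrays was smaller than the SD of single spots within 1 array. A mean over 8 spots varies less than a single spot, so this does not show that the arrays were equal. Hdac3 differed by -0.58 in females, at the edge of the threshold, and by 0.30 in males.

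Hdac8, an X-linked deacetylase known for acting on cohesin, was the one gene in either gender whose several probes all passed 1.5-fold the same way. A_51_P481191 read -1.70 on MF, -1.11 on CF, -1.12 on MM and -0.15 on CM, and A_52_P464062 read -1.42, -0.73, -1.22 and -0.32. The differences were -0.59 and -0.70 in females and -0.97 and -0.90 in males. On both probes MF was the lowest array and CM the highest, and the female difference lay close to the threshold of 0.585. After centring on the median, after quantile normalization and after removal of a position trend, the probes no longer both passed in females. Without scaling neither passed in females (-0.19 and -0.29) or in males (-0.41 and -0.34), and after normexp correction A_51_P481191 did not pass in males (-0.56). The unadjusted limma p was 0.0997 and 0.0920, and the adjusted p was 0.998.

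Of the remaining deacetylases, Hdac6, an X-linked tubulin deacetylase, was lower in MF on 1 probe (1.01 on MF, 1.72 on CF, 1.58 on MM and 1.77 on CM, -0.71), and its other probe differed by -0.52. Both Hdac6 probes had differences within 0.20 of 0 in males. Hdac10, which deacetylates polyamines, lay within 1.5-fold on both probes. Hdac11, the class IV enzyme, was higher in M in both genders, at -2.62 on MF, -3.28 on CF, -2.01 on MM and -2.79 on CM, which gave 0.66 (1.58-fold) and 0.78 (1.72-fold). Both M arrays were above both C arrays on this probe. After normexp correction the differences were 0.14 and 0.31, under the threshold.

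The Sirt family, of 7 genes and 10 probes, showed the fewest differences in females. Of 9 probes compared, 0 were higher and 1 was lower in MF (median 0.06), and 2 were higher and 0 lower in MM (median -0.03), and both medians changed sign in 3 of 11 alternatives. Sirt4, a mitochondrial sirtuin, accounted for the probe lower in MF and for 1 of those higher in MM, on different probes. A_55_P2185372 read -1.86 on MF, -0.96 on CF, -1.45 on MM and -1.63 on CM (-0.91 in females and 0.18 in males). A_51_P424641 read -0.85, -0.57, -0.97 and -1.94 (-0.28 in females and 0.97 in males, 1.96-fold).

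Sirt6, a nuclear sirtuin that restrains glycolytic genes, had both probes above CF in MF by 0.49 and 0.47, under the threshold. In males they parted: A_55_P2072468, with 6 windows, differed by -0.40, and A_55_P2185794 gave a bound of 1.05, being not well above background on CM. Sirt1, which deacetylates regulators of fasting metabolism, read 1.38 on MF, 1.85 on CF, 2.34 on MM and 2.40 on CM, with both males above both females and neither comparison past 1.5-fold. Sirt2 was the lowest Sirt probe in males (-0.46), and Sirt5 differed by 0.46 and 0.40. The flagged Sirt3 probe, if kept, differed by -0.72 in females and 0.37 in males.

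The Kdm family has 14 genes and 21 probes, of which 20 were compared in each gender: 2 higher and 2 lower in MF (median 0.19), and 4 higher and 1 lower in MM (median 0.11). Both medians stayed above 0 in all 11 alternatives, from 0.02 to 0.59 in females and from 0.02 to 0.67 in males. Kdm1a, Kdm1b, Kdm3a, Kdm4b, Kdm4c, the measured probe of Kdm3b and both probes of Kdm2a lay within 1.5-fold in both genders. Kdm2b was higher in MM on 1 of 2 probes (2.10 on MM and 1.24 on CM, 0.86).

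Kdm5b, which removes methyl groups from lysine 4 of histone H3, showed the widest disagreement between probes in males. A_55_P1960576 read -1.62 on MF, -1.93 on CF, -1.72 on MM and -3.14 on CM, with CM below the others, and was higher in MM by 1.43 (2.69-fold). A_55_P1960581 read -3.87, -2.53, -4.04 and -3.28 and was lower in M in both genders, with differences of -1.33 in females (2.52-fold) and -0.76 in males (1.69-fold). Both C arrays were above both M arrays on this probe. The male difference was under 1.5-fold after centring on the median (-0.52), after quantile normalization (-0.53), after removal of a position trend (-0.49) and without scaling (-0.20).

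Both of these Kdm5b probes are assigned by the array annotation to a transcript other than a RefSeq mRNA. Among the 104 member probes 7 are, with those of Arid5b and Smarcal1 and Smarcc1 A_55_P1984625 above among them. The 2 Kdm5b probes assigned to RefSeq mRNAs did not pass 1.5-fold in either gender. A_55_P2065449 read 1.21, 0.67, 1.62 and 1.17 on MF, CF, MM and CM (0.54 in females and 0.45 in males), and A_52_P601980 read -1.51, -1.82, -1.47 and -1.36 (0.31 and -0.10). A_55_P1960576 has 7 C and T windows and the other Kdm5b probes have 0 or 1.

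The other Kdm probes past the threshold passed in 1 gender. Kdm6a, the X-linked demethylase of lysine 27 of histone H3, read 0.40 on MF, 1.24 on CF, 0.54 on MM and 0.36 on CM, with CF above the other 3 arrays and a difference of -0.83 in females. Kdm6b, which acts on the same mark, read 0.70, -0.09, -0.70 and -0.68 and was higher in MF by 0.80 (1.74-fold). Kdm5a was higher in MF by 0.67, with 0.48 in males. Kdm4d, best known from testis, was above background on MM (-2.09) and MF (-5.20) alone. It was at -6.41 on CM and gave a nominal bound of 6.02-fold higher in MM. The second Kdm4a probe passed in males by a bound of 0.63.

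Agreement between the probes of a member gene was limited in both genders. The same counts were not made over all genes of the array, so whether the members differ from other genes in this was not tested. Several probes were measured for 23 genes in females and 24 in males, and at least 1 probe passed 1.5-fold in 12 and 10 of them. All probes passed the same way in 1 gene (Hdac8) in each gender. Probes passed in both directions in 2 genes in females (Smarca4 and Arid1b) and in 1 in males (Kdm5b).

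Among genes whose probes were all measured on both arrays, the differences had 1 sign in 7 of 18 in females and in 9 of 17 in males. The median gap between the highest and lowest probe of a gene was 0.60 in females and 0.45 in males, and the largest was 3.69 (Smarcc1 in females) and 2.19 (Kdm5b in males). For comparison, repeated spots of a probe within an array had a median SD of 0.25 on MF, 0.26 on CF, 0.19 on MM and 0.27 on CM, over 284 to 298 probes. For a probe printed once with that median SD, the difference of 2 arrays has a printing and scanning spread of about 0.36 in females and 0.33 in males. That figure does not cover the spread between animals. The spots of Hdac2 varied more than the median probe, with an SD of 0.32 to 0.44, so the spread can be wider for a member.

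**Figure D4:**
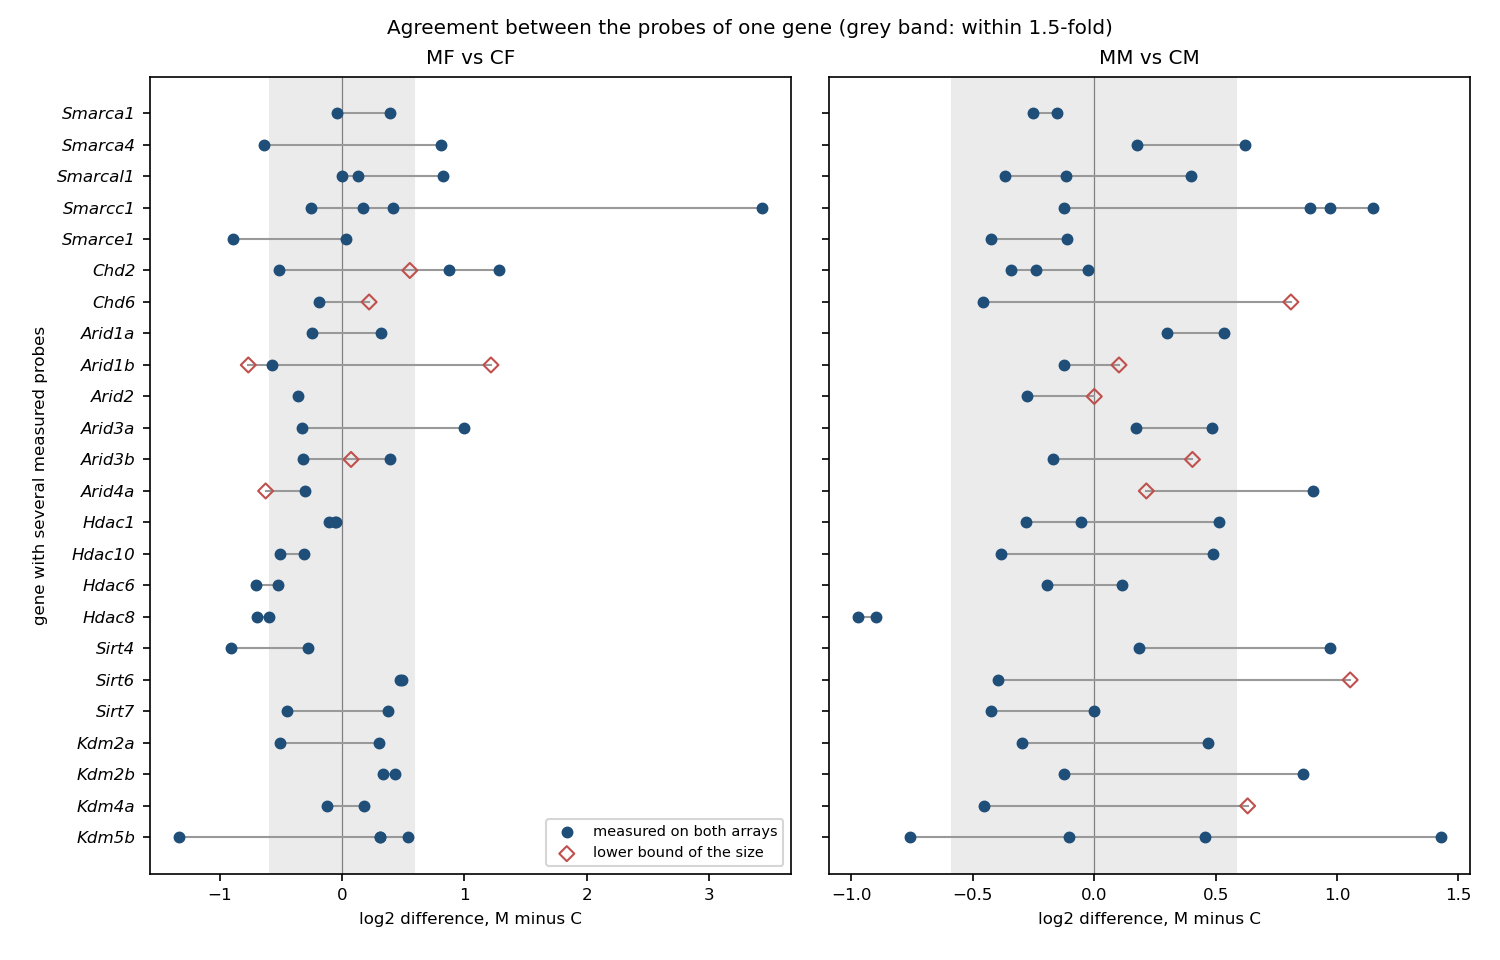
Log2 difference (M minus C) of each probe of the genes with several measured probes, one line per gene, in females (left) and males (right, with its own x scale). Filled points were measured on both arrays, open diamonds are nominal bounds of the size, and the grey band is 1.5-fold. In females the Smarcc1 line runs from -0.26 to 3.43, and the Hdac8 points lie outside the band in both panels.

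In each list of partners of these enzymes, the share of probes past 1.5-fold was below that of all probes given above (41.4% in females and 41.1% in males). Of 21 probes of SWI/SNF partner subunits, 2 were higher and 4 lower in MF (median -0.08) and 2 were higher and 2 lower in MM (median 0.06). The next list held ISWI, INO80 and SRCAP subunits and related remodellers such as Atrx and Hells. Of its 28 probes, 4 were higher and 2 lower in MF (median -0.34), and 4 were higher and 1 lower in MM (median 0.08). In this list Ruvbl2, an ATPase of INO80 with 4 C and T windows in its probe, read 6.95 on MF, 4.26 on CF, 4.08 on MM and 4.11 on CM, 2.69 higher in MF, again on the MF array alone.

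For the corepressors that carry deacetylases, NuRD subunits among them, 5 of 36 probes were higher and 4 lower in MF (median 0.12). In males 9 were higher and 3 lower in MM (median 0.05). On 1 of 3 probes Ncor1, the corepressor partner of Hdac3, read -0.18 on MF, -0.63 on CF, 0.01 on MM and -1.03 on CM, higher in MM by 1.04 and by 0.45, under the threshold, in MF. The other 2 Ncor1 probes differed by 0.18 and -0.12 in males. The NuRD subunit Gatad2a was higher in both genders on 1 of 3 probes (0.80 and 0.69), and the other 2 differed by -0.22 and -0.18 in females and did not pass in males. Rbbp4, a histone chaperone of these complexes, again differed by probe in females, by 0.67 and -0.93. In males the same probes differed by -0.31 and -1.06, so that the second was past 1.5-fold lower in M in both genders.

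Among the opposing enzymes, 14 of 18 histone acetyltransferase genes had a probe, and of 20 probes 1 was higher and 2 lower in MF (median -0.11), and 4 were higher and 2 lower in MM (median 0.08). For histone methyltransferases, 24 of 26 genes had a probe. Of 40 probes, 5 were higher and 9 lower in MF (median -0.15), and of 41, 3 were higher and 4 lower in MM (median -0.06). For demethylases under other names, 10 of 11 genes had a probe, and of 12 probes 2 were higher and 2 lower in MF (median -0.30) and 2 were higher and 1 lower in MM (median 0.08). Phf2, the demethylase that pairs with Arid5b, was higher in M in both genders, at 1.38 on MF, 0.55 on CF, 0.25 on MM and -0.76 on CM, with a difference of 0.83 in females, a wider one in males, and CF above MM.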

How the data were processed

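Total liver RNA of 4 samples was hybridized to Agilent mouse arrays by the authors, who quantified the scans with Feature Extraction 10.7.3.1 and deposited the processed signal of each spot, an intensity on a linear scale after background subtraction and detrending, without normalization between arrays. The array annotation uses mm9.

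Processed signals of non-control spots were taken as log2 minus the 75th percentile of the array. On all arrays, 1754 spots were omitted because at least 1 array had flagged them as non-uniform or as population outliers, and spots of a probe were averaged. A probe was counted when well above background on at least 1 array of a pair and over 1.5-fold apart. Where the other array was not, its signal was set to the higher of its own value and the lowest signal well above background there (log2 -5.98 on MF, -5.48 on CF, -5.83 on MM and -4.68 on CM). A bound that came out in the opposite direction was set to 0. A family or list median covers measured differences, and for the partner lists also bounds. limma 3.58.1 (R 4.3.3) was fitted to the probes well above background on all 4 arrays, with gender as a term and Benjamini-Hochberg adjustment, and was tested on simulated data. Groups were taken from the sample labels.

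Named by rule were genes whose probes all passed the same way, genes with a probe past 1.5-fold the same way in both genders, genes with probes past in both directions, Smarcc1, Hdac5 and Chd1, and the highest and lowest probe of each family and gender (21 genes). Other genes were named after their values were seen. The members and lists, those of heart and intestine among them, were chosen with earlier results of these data known. Alternatives changed the scaling (median, quantile normalization, none), the background correction (normexp, offset 50), the filter on dim probes, the flags, the fold (2-fold), the probe (the brightest), trends with GC content and array position, probes rich in C and T, and the limma model. A RefSeq table of GRCm38.p6 was used for symbols alone.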

Additional observations from a re-analysis of the deposited data

Results flagged for a closer look

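Hdac7 differed by 1.66 in MF vs CF and by -0.96 in MM vs CM, the one member probe past 1.5-fold in opposite directions in the genders. The difference between the genders was not tested.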

How the results depend on the processing

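No paired analysis was possible because the labels give no replicate numbers that pair arrays, with 1 array per group. The count of member probes past 1.5-fold in MF vs CF (27) was 11 with a 2-fold threshold and 15 with the brightest probe of each gene, and 24 to 39 with the other alternatives. In MM vs CM the count (22) was 36 after centring on the median, 49 without scaling, 41 after normexp, 34 without a filter on dim probes, 4 at 2-fold and 13 with the brightest probe. The same way in both genders (6) became 19 without scaling, 12 without a filter, 0 at 2-fold and 3 after removal of the position trend. Opposite ways (1) became 2 after quantile normalization or removal of the GC trend, 0 without scaling or at 2-fold, 11 after normexp and 6 without a filter. Genes with all probes past the same way in MF vs CF (1) became 0 after median centring, quantile normalization, removal of the position trend or at 2-fold, and 2 without scaling. In MM vs CM (1) they became 5 without scaling, 2 without a filter or without probes rich in C and T, and 0 at 2-fold. limma called 0 member probes in every alternative. Of 31 named differences past 1.5-fold, 31 still passed the same way after removal of the GC trend, 28 after that of the position trend, 27 after median centring or quantile normalization and 20 without scaling or after normexp. After normexp, Arid4a A_55_P2055419 (-0.024) and Chd3 (0.30) changed sign in MM vs CM. Where no cause is given, the cause was not tested. Signal over background limits Arid1b, Arid3c, Chd5, Kdm4d and Smarcd3.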
